A study of Mus musculus with 24 samples.

Results

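The 44 genes described here are cell-cycle genes of 2 kinds, 25 genes of DNA replication and nucleotide supply and 19 genes of mitosis, chosen by name from the symbols of 4 gene expression tables. Each gene had exactly 1 entry in each table, and all 44 passed the filter on low values in all 4 tables, out of 12674 genes that did so. They were compared in 4 mouse tumour lines between cells with a guide RNA against B2m and cells with a non-targeting guide.

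B2m encodes beta-2-microglobulin, the light chain of MHC class I, and the study edited it to ask how the loss of MHC class I in tumour cells bears on tumour growth and its surroundings. The 8 groups were sgB2m and sgNT cells of MC38 (colon adenocarcinoma), LLC1 (Lewis lung carcinoma), AKR (esophageal carcinoma) and Hepa1-6 (hepatocellular carcinoma), with 3 RNA-seq libraries in each. All were grown in culture in DMEM with serum, and the sgNT cells carry a guide too. The labels do not say whether edited cells were clones or pools, or whether the libraries of a group came from separate cultures, so the p-values measure the spread between these libraries, which may be technical. In a bulk sample, fewer cells in a phase of the cycle and less RNA per cell in that phase cannot be told apart.

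The labelled origin was visible in part. With a mean log2 value of 6 taken as present, Hepa1-6 had 5 of 6 hepatocyte markers. AKR had Krt13 and Sox2, 2 of 6 squamous markers, with 2 at 0, and LLC1 had Napsa and Abca3, 2 of 6 alveolar markers, with 2 at 0. MC38 had only Lgals4 of 6 intestinal markers, with 3 at 0. Markers of other origins were present too. AKR had 3 of 6 intestinal markers (Cdx2, Krt20 and Lgals4), more than of its own origin, Hepa1-6 had 4 of 6, MC38 had Krt14 and Sox2 of the squamous markers, and Abca3 was present in every line. All 4 markers of T and NK cells were at 0 in every line. Csf1r, 1 of 4 myeloid markers, was present in Hepa1-6 (7.61). Pecam1, 1 of 3 endothelial markers, was present in Hepa1-6 (9.26) and AKR (6.74). B2m fell in each line, with means of 9462, 5045, 4309 and 2574 normalised counts in sgB2m cells of MC38, LLC1, AKR and Hepa1-6, against 32418, 16562, 12817 and 6578 in sgNT cells. The 24 libraries held 25.02 to 49.72 M counted reads each. The summed level of 5 fibroblast markers did not overlap between the guides in any of the 4 lines. It ranged from 73994 to 76063 normalised counts in sgB2m and from 35129 to 36932 in sgNT libraries of MC38, and from 73191 to 74986 in sgB2m and from 29921 to 30985 in sgNT libraries of LLC1. In AKR it ranged from 13994 to 14420 in sgB2m and from 15237 to 15761 in sgNT libraries, and in Hepa1-6 from 692 to 882 in sgB2m and from 447 to 558 in sgNT libraries. This sum mostly followed 1 gene and does not show that all 5 markers moved. Col3a1 led it in MC38, LLC1 and AKR, at mean log2 values of 15, 15.5 and 13.8. The next markers there were at 12.7, 9.96 and 9.09. In Hepa1-6 Dcn led it at 9.03, with Col3a1 at 0. The sum of 4 general epithelial markers did not overlap in 3 lines, with 275 to 303 in sgB2m against 491 to 516 in sgNT libraries of MC38, 2053 to 2473 against 2743 to 2819 in LLC1 and 31454 to 33982 against 23165 to 23912 in AKR. That of the intestinal markers in AKR was 906 to 1072 in sgB2m, against 454 to 584 in sgNT. Gaps between the guides were not special to these lists. The squamous sum did not overlap for MC38, AKR or Hepa1-6, nor did the alveolar sum for MC38, LLC1 or Hepa1-6. The hepatocyte sum overlapped only for LLC1. Myeloid sums of Hepa1-6 were 135 to 172 in sgB2m libraries, against 236 to 303 in sgNT libraries. Endothelial sums overlapped only for MC38 and AKR. Of all genes, 22% to 25.9% by line were higher without overlap and 23% to 26.6% lower. The part of these markers in the results was not tested.

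A dividing cell makes these transcripts in waves. CDC6 and CDT1 load the ring-shaped MCM helicase onto origins in G1, and CDC45 and GINS join it as S phase begins, so that polymerases, held by the PCNA clamp, can copy the DNA. Many genes of this first wave are driven by E2F factors, which the RB protein holds in check until cyclin D and cyclin E kinases act. The later wave, in G2 and mitosis, holds the cyclin B kinase, the Polo and Aurora kinases, the spindle motors and the kinetochore. Its promoters often carry a cell cycle homology region (TTTGAA) beside CCAAT boxes, and are bound by the MuvB complex with B-MYB and FOXM1. Tumour lines in culture transcribe both waves.

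The promoters of the gene groups differed in this way. RefSeq promoter windows (GRCm38.p6), from 250 bases before to 50 bases after the start, were at hand for 34 of the 44 genes, 20 of replication and 14 of mitosis. These 4 promoters were picked as examples because they carry the typical motifs of each wave. Each runs from 200 bases before to 20 bases after the start, 5′ to 3′ on the strand of the gene, with the motifs searched for in capitals. They lie at chr8:75109309-75109528 (plus strand, Mcm5), chr1:128359686-128359905 (minus, Mcm6), chr9:70421535-70421754 (minus, Ccnb2) and chr4:118437324-118437543 (minus, Cdc20).
Mcm5: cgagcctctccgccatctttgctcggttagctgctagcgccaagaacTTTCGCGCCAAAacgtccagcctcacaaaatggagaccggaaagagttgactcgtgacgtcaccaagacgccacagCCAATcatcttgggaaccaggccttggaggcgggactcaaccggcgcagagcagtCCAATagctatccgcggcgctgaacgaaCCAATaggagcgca
Mcm6: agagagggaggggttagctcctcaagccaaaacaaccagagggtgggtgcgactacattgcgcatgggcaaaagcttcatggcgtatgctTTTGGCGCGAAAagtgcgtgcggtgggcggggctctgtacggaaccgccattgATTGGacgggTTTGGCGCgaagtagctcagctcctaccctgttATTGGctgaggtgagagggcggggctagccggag
Ccnb2: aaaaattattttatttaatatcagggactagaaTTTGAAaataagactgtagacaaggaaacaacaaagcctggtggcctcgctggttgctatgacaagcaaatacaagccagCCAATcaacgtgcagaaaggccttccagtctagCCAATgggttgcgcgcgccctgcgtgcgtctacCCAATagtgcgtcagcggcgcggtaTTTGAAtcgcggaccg
Cdc20: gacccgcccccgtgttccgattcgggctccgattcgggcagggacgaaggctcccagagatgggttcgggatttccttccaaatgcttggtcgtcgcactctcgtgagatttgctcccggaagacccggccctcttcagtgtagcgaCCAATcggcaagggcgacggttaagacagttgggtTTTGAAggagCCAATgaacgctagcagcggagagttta

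The E2F-type motifs searched on both strands were TTTGGCGC, TTTCCCGC, TTTCGCGC and GGCGGGAA. They can overlap, as TTTCGCGC on 1 strand does with TTTGGCGC on the other in the Mcm5 and Mcm6 promoters, and GGCGGGAA can overlap the reverse of TTTCCCGC. At least 1 of the 4 stood in 11 of 20 replication promoters (55%) and in 1 of 14 mitotic promoters (7.14%), against 3.57% of the promoters of 27025 genes. TTTGAA in the window from 50 bases before to 50 after the start stood in 1 of 20 replication promoters (5%) and 9 of 14 mitotic promoters (64.3%), against 4.92% of all. CCAAT stood in 13 of 20 (65%) and 13 of 14 (92.9%), against 37.9%. A match describes the letters in the window and is not a measured site.

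The gene groups moved differently in each line. A gene was called when limma's moderated test gave a Benjamini-Hochberg adjusted p under 0.05 over all genes tested in that line, and a change is given as the log2 of sgB2m over sgNT. In LLC1, 19 of 25 replication genes were called lower in sgB2m cells and 1 higher, while 15 of 19 mitotic genes were called higher and 0 lower. Over all genes of that line 42.4% were called, 20.7% higher and 21.8% lower. The median change was -0.23 for replication genes and 0.21 for mitotic genes, against 0.01 for all genes tested. In Hepa1-6 both groups were lower. There 18 replication genes were called lower and 0 higher, and 12 mitotic genes were called lower and 1 higher, against 19.2% lower and 18.6% higher over all genes, 37.8% in all. The medians were -0.27 and -0.15, against -0.01 for all genes.

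In AKR the replication genes were called lower in 12 cases and higher in 4, and the mitotic genes higher in 9 and lower in 7, against 21% higher and 21.9% lower over all genes, 42.9% in all. The medians were -0.14 and 0.11, against 0.01. That of the mitotic genes was 0.21 with quantile normalisation, 0.07 with median centring, 0.08 corrected for transcript length and 0.06 without sgB2m replicate 2. In MC38 neither group leaned to a side, with 6 replication genes called higher and 6 lower, and 4 mitotic genes called higher and 5 lower. That made 21 of the 44 members called, against 31.8% of all genes, 15.9% higher and 15.8% lower. The medians were 0.03 and -0.03, against 0. Changes were small, and 1 member passed a 2-fold change in LLC1 (Cdt1) and 1 in AKR (Pola1), with 0 in MC38 and Hepa1-6. The median absolute change of members was 0.14, 0.23, 0.26 and 0.23 in MC38, LLC1, AKR and Hepa1-6. Over all genes it was 0.23, 0.23, 0.26 and 0.21. The median SE of members was 0.053, 0.041, 0.052 and 0.043, against 0.1, 0.088, 0.09 and 0.093 over all genes. A larger share called than over all genes thus does not show larger changes. The part of the SE in the counts was not tested.

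**Figure D1:**
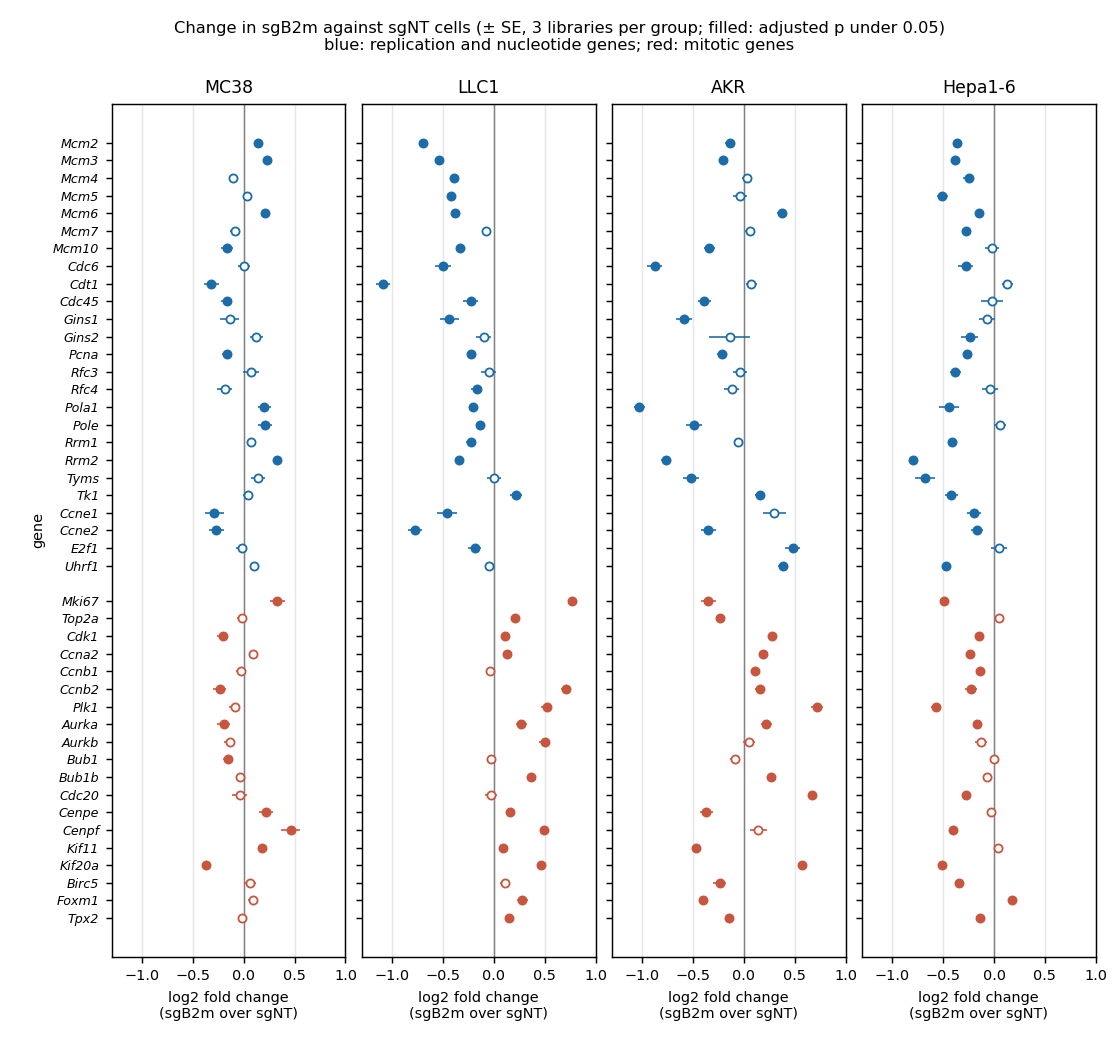
Each point is the log2 fold change of 1 member in sgB2m over sgNT cells, with its standard error over 3 libraries per group, in 1 panel per line. Blue points are replication and nucleotide genes, red points are mitotic genes, and filled points were called. Blue points lie mostly left of 0 in LLC1 and Hepa1-6, while red points lie mostly right of 0 in LLC1 and left of 0 in Hepa1-6.

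Counts of calls and of members without overlap between single libraries were close to each other in LLC1, AKR and Hepa1-6. In MC38 13 members lay above and 16 below without overlap, while 10 were called higher and 11 lower. In LLC1 the sgB2m libraries lay all below the sgNT libraries for 21 replication genes and all above for 1, and all above for 15 mitotic genes and all below for 0, while 25.8% of all genes had sgB2m above and 25.9% below without overlap. In Hepa1-6 they lay below for 18 replication and 12 mitotic genes and above for 1 of each, against 24.3% below and 23.3% above over all genes. In AKR they lay below for 13 replication and 8 mitotic genes and above for 4 and 9, against 26.6% below and 25.9% above over all genes. In MC38 they lay below for 9 replication and 7 mitotic genes and above for 8 and 5, against 23% below and 22% above over all genes.

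The MC38 counts changed when single libraries were left out, which also leaves fewer libraries for the test. The medians there stayed at 0.01 to 0.04 for replication and at -0.04 to -0.01 for mitotic genes. The count of replication genes called higher was 3 without sgB2m replicate 1, sgB2m replicate 3 or sgNT replicate 2. The count called lower was 1 without sgB2m replicate 1 or replicate 3, 2 without sgNT replicate 2 and 3 without sgNT replicate 3. The count of mitotic genes called lower was 2 without sgB2m replicate 1, sgB2m replicate 2 or sgNT replicate 2, and 3 without sgB2m replicate 3. In AKR the medians were -0.07 for replication and 0.06 for mitotic genes without sgB2m replicate 2.

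Several calls in MC38 also rested on how limma set the spread. With no intensity trend the limma adjusted p was 0.057 for Cdt1, 0.0744 for Ccne2, 0.0969 for Ccne1, 0.0984 for Pcna, 0.0746 for Cdk1, 0.0781 for Ccnb2, 0.0615 for Cenpf and 0.0802 for Mki67, so these calls were lost there.

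The mean over each gene group showed the same order in single libraries. Replication genes deviated from their mean of the LLC1 libraries by -0.15, -0.15 and -0.17 in sgB2m and by 0.14, 0.18 and 0.15 in sgNT, while mitotic genes deviated by 0.16, 0.16 and 0.10 in sgB2m and by -0.16, -0.13 and -0.13 in sgNT. The 2 guides did not overlap for either group in LLC1, AKR or Hepa1-6. The gap was narrow for mitotic genes in AKR, at 0, 0.05 and 0.04 in sgB2m and -0.04, -0.03 and -0.02 in sgNT. In MC38 all deviations lay between -0.02 and 0.02 and the guides overlapped. All genes tested deviated by at most 0.03 in any MC38 library. In Hepa1-6 they deviated by 0.01, 0.02 and 0.01 in sgB2m and by -0.01, -0.02 and 0 in sgNT, also without overlap.

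**Figure D2:**
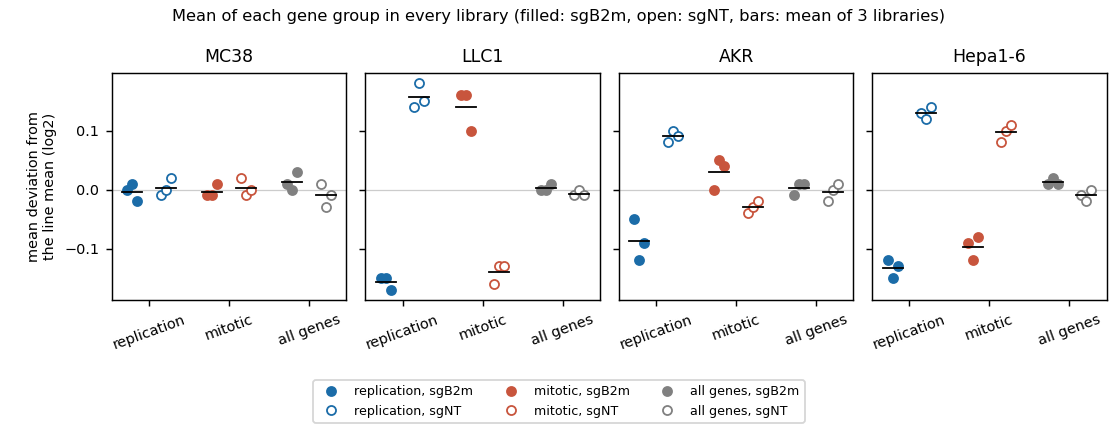
Each point is the mean over a gene group of the log2 deviation from the mean of the line, in 1 library, with the mean of 3 libraries as a bar. Filled points are sgB2m and open points sgNT. In LLC1 the replication genes sit at -0.15 to -0.17 in sgB2m and the mitotic genes at 0.10 to 0.16, in Hepa1-6 both lie below 0 in sgB2m, and in MC38 both lie near 0.

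The 6 subunits of the MCM helicase, which unwinds DNA at the fork, were called lower in 6 of 6 cases in Hepa1-6 and in 5 of 6 in LLC1, against 19.2% and 21.8% of all genes. In MC38 3 of 6 were called higher (Mcm2, Mcm3 and Mcm6) and in AKR 1 was higher (Mcm6) and 2 lower (Mcm2 and Mcm3). Over all genes 15.9% were called higher in MC38, and 21% higher and 21.9% lower in AKR. Mcm2 (ENSMUSG00000002870, minus strand of chromosome 6, 88883474 to 88898780, mm10) had 2784, 2867 and 2996 normalised counts in LLC1 sgB2m libraries, against 4728, 4793 and 4571 in sgNT libraries. Its change was -0.70 ± 0.040 (SE, limma adjusted p = 6.65e-09), and the guides did not overlap. Mcm3 in LLC1 had 5327, 5488 and 5396 in sgB2m, against 7619, 7841 and 8079 in sgNT, a change of -0.54 ± 0.033 (limma adjusted p = 1.45e-08). All sgB2m libraries were below all sgNT libraries. Mcm5 in Hepa1-6, the gene of the first promoter shown, had 1903, 1799 and 1947 in sgB2m, against 2504, 2759 and 2760 in sgNT, a change of -0.51 ± 0.053 (limma adjusted p = 1.76e-06), again without overlap. Mcm6, the gene of the second promoter, was called in all 4 lines, with 0.21 in MC38 and 0.37 in AKR, against -0.38 in LLC1 and -0.15 in Hepa1-6. Mcm7 was called only in Hepa1-6 (-0.28), and Mcm4 and Mcm5 in LLC1 (-0.39 and -0.42) and Hepa1-6 (-0.25 and -0.51).

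Among the factors that load and fire the helicase, 0 were called higher in any line. The numbers called lower were 5 of 6 for LLC1, 4 for AKR, 3 for MC38 and 2 for Hepa1-6. Over all genes 21.8%, 21.9%, 15.8% and 19.2% were called lower in these lines, and 20.7%, 21%, 15.9% and 18.6% higher. Cdt1 (ENSMUSG00000006585, plus strand of chromosome 8, 122568015 to 122573554), which brings the MCM ring to origins and is limited to G1, gave the lowest change of all members. In LLC1 it had 1279, 1264 and 1541 normalised counts in sgB2m, against 2888, 3058 and 2736 in sgNT. The sgB2m libraries were far below the sgNT libraries, a 2.13-fold lower level (-1.09 ± 0.070, limma adjusted p = 2.24e-08). In MC38 Cdt1 had 2251, 1937 and 2303 in sgB2m, against 2613, 2626 and 2831 in sgNT, with no overlap (-0.32 ± 0.074, limma adjusted p = 0.00889). In AKR and Hepa1-6 it was not called, at 0.07 and 0.13.

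Cdc6 (ENSMUSG00000017499, plus strand of chromosome 11, 98907801 to 98923940), the ATPase that loads the MCM ring with CDT1, gave its largest change in AKR. It had 601, 549 and 583 normalised counts in sgB2m, against 1061, 1134 and 996 in sgNT. Every sgB2m library was below every sgNT library, a 1.84-fold lower level (-0.88 ± 0.073, limma adjusted p = 5.83e-06). It was also called lower in LLC1 (-0.50) and Hepa1-6 (-0.28) and stood at 0 in MC38. Gins1, a subunit of GINS, had 410, 429 and 423 in AKR sgB2m libraries, against 604, 655 and 645 in sgNT libraries (-0.59 ± 0.076, limma adjusted p = 0.000113), with no overlap, and was lower in LLC1 too (-0.44). Mcm10 and Cdc45, which act as the helicase is switched on, were called lower in MC38 (both -0.17), LLC1 (-0.33 and -0.23) and AKR (-0.34 and -0.39), and neither was called in Hepa1-6 (both -0.02). Gins2 was called only in Hepa1-6 (-0.24). In AKR its sgB2m libraries were widely spread, at 916, 442 and 594, against 696, 713 and 644 in sgNT, and the guides overlapped.

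Of the clamp, its loader and the polymerases, Pcna was called in every line. Pcna (ENSMUSG00000027342, minus strand of chromosome 2, 132249162 to 132253314) encodes the sliding clamp and was called lower each time. In MC38 it had 15154, 16045 and 14757 normalised counts in sgB2m, against 16918, 16918 and 17669 in sgNT, and in LLC1 5206, 5487 and 5001 in sgB2m, against 5936, 6165 and 6267 in sgNT. In AKR it had 6614, 5895 and 6049 in sgB2m, against 7258, 7155 and 7222 in sgNT, and in Hepa1-6 3744, 3944 and 3814 in sgB2m, against 4649, 4646 and 4561 in sgNT. No line showed overlap between the guides. The changes were -0.17 ± 0.043, -0.23 ± 0.039, -0.22 ± 0.047 and -0.27 ± 0.036 in MC38, LLC1, AKR and Hepa1-6 (limma adjusted p = 0.0148, 0.000293, 0.00296 and 2.58e-05). In MC38 the call was lost without sgB2m replicate 1 (limma adjusted p = 0.0656) or sgB2m replicate 3 (0.078), and in AKR with quantile normalisation (-0.12, limma adjusted p = 0.0892).

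Pola1 (ENSMUSG00000006678, minus strand of chromosome X, 93304767 to 93632155), the catalytic subunit of the polymerase that starts each new strand, gave the second member change past 2-fold. In AKR it had 929, 993 and 1014 normalised counts in sgB2m, against 2033, 2031 and 1951 in sgNT. The guides were far apart, 2.05-fold lower in sgB2m (-1.03 ± 0.057, limma adjusted p = 3.45e-07). It was called lower in LLC1 (-0.21) and Hepa1-6 (-0.44) and higher in MC38 (0.20). Pole, of the leading-strand polymerase, was lower in AKR (-0.49) and LLC1 (-0.14), higher in MC38 (0.21) and not called in Hepa1-6 (0.06). The clamp loader genes Rfc3 and Rfc4 were each called in 1 line, Rfc3 in Hepa1-6 (-0.38) and Rfc4 in LLC1 (-0.17).

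All 4 enzymes of nucleotide supply were called lower in Hepa1-6, against 19.2% of all genes, with changes from -0.80 to -0.41. Rrm2 (ENSMUSG00000020649, plus strand of chromosome 12, 24708241 to 24714146) encodes the small subunit of ribonucleotide reductase, which makes deoxynucleotides. In Hepa1-6 it had 3299, 3411 and 3636 normalised counts in sgB2m, against 5993, 6085 and 5978 in sgNT, and in AKR 4152, 4022 and 3925 in sgB2m, against 6745, 6808 and 7098 in sgNT. These were 1.75-fold and 1.71-fold lower levels with no overlap (-0.80 ± 0.040, limma adjusted p = 3.14e-10, and -0.77 ± 0.042, limma adjusted p = 3.45e-07). In MC38 Rrm2 had 9177, 9028 and 8883 in sgB2m, against 7101, 7146 and 7325 in sgNT, so it was higher in every sgB2m library (0.33 ± 0.039, limma adjusted p = 0.000195). In LLC1 it was lower (-0.34). Tyms (ENSMUSG00000025747, minus strand of chromosome 5, 30058202 to 30073617), thymidylate synthase, had 393, 502 and 436 in Hepa1-6 sgB2m libraries, against 780, 661 and 681 in sgNT libraries. Its change there was -0.68 ± 0.10 (limma adjusted p = 9.13e-05) with no overlap, and it was -0.52 in AKR and not called in LLC1 (0) or MC38 (0.14). Rrm1, the large subunit, was lower in Hepa1-6 (-0.41) and LLC1 (-0.23). Tk1, thymidine kinase, was the only replication gene called higher in LLC1 (0.22), was higher in AKR (0.16), and was lower in Hepa1-6 (-0.42).

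The regulators of S phase entry moved in different directions. Ccne2 (ENSMUSG00000028212, plus strand of chromosome 4, 11191351 to 11204779) encodes cyclin E2, the partner of CDK2, and was the other member called lower in all 4 lines. In LLC1 it had 845, 847 and 729 normalised counts in sgB2m, against 1400, 1353 and 1386 in sgNT, a 1.71-fold lower level with no overlap (-0.78 ± 0.068, limma adjusted p = 4.81e-07). In MC38 it had 1268, 1404 and 1289 in sgB2m, against 1728, 1567 and 1480 in sgNT (-0.27 ± 0.076, limma adjusted p = 0.0233). The change was -0.35 in AKR and -0.17 in Hepa1-6. The MC38 call was lost without sgB2m replicate 1, sgB2m replicate 3 or sgNT replicate 2 (limma adjusted p = 0.0865, 0.0774 and 0.0577).

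Ccne1, for cyclin E1, had 759, 850 and 670 normalised counts in MC38 sgB2m libraries, against 933, 889 and 958 in sgNT libraries (-0.29 ± 0.096, limma adjusted p = 0.0411). The guides did not overlap, yet the call was lost without sgB2m replicate 1 or 3 or any 1 of the 3 sgNT libraries, with limma adjusted p from 0.0564 to 0.147. It was lost as well with the replicate block, with median centring, with quantile normalisation and with no filter (limma adjusted p from 0.0511 to 0.0694). It was lower in LLC1 (-0.46) and Hepa1-6 (-0.20), and in AKR the value of 0.30 was not called. E2f1, an activator E2F, had 877, 914 and 918 in AKR sgB2m libraries, against 604, 643 and 695 in sgNT libraries, a 1.4-fold higher level with no overlap (0.48 ± 0.073, limma adjusted p = 0.000338). In LLC1 E2f1 had 1002, 988 and 983 in sgB2m, against 1040, 1191 and 1163 in sgNT (-0.19 ± 0.064, limma adjusted p = 0.0282). That call was lost without sgB2m replicate 2 or 3 or sgNT replicate 2 or 3, with limma adjusted p from 0.056 to 0.122, and with no filter (0.0686) or no intensity trend (0.0726).

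E2f1 was not called in the other lines. In MC38 it had 2588, 2517 and 2423 in sgB2m, against 2487, 2516 and 2632 in sgNT, and in Hepa1-6 904, 789 and 976 in sgB2m, against 825, 867 and 885 in sgNT, with overlap in both. Uhrf1, which guides the copying of DNA methylation, was higher in AKR (0.38) and lower in Hepa1-6. There it had 2536, 2499 and 2375 in sgB2m, against 3448, 3394 and 3424 in sgNT, without overlap (-0.47 ± 0.042, limma adjusted p = 3.16e-07).

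Of the mitotic cyclins, their kinase and FOXM1, 4 of 5 were called higher in LLC1, 4 were higher and 1 lower in AKR, 4 were lower and 1 higher in Hepa1-6, and 2 were lower in MC38. Over all genes 20.7%, 21%, 18.6% and 15.9% were called higher in these lines, and 21.8%, 21.9%, 19.2% and 15.8% lower. Cdk1 encodes the kinase that drives entry into mitosis. In MC38 it had 5616, 5908 and 5936 normalised counts in sgB2m, against 6400, 6631 and 7129 in sgNT (-0.21 ± 0.051, limma adjusted p = 0.0124), and in Hepa1-6 4782, 4739 and 4526 in sgB2m, against 5178, 5166 and 5199 in sgNT (-0.15 ± 0.035, limma adjusted p = 0.00348). In AKR it had 5890, 5669 and 5755 in sgB2m, against 4519, 4794 and 4918 in sgNT (0.28 ± 0.044, limma adjusted p = 0.000425). In LLC1 the values were 3806, 3838 and 3673 in sgB2m, against 3500, 3528 and 3453 in sgNT (0.11 ± 0.037, limma adjusted p = 0.0268). Thus sgB2m libraries were lower in MC38 and Hepa1-6 and higher in AKR and LLC1, with no overlap in any line. The MC38 call was lost without sgB2m replicate 1 (limma adjusted p = 0.0605), and the LLC1 call without sgB2m replicate 1 or 2 or any 1 of the 3 sgNT libraries (0.0536 to 0.0883). With no intensity trend the LLC1 and Hepa1-6 calls were lost too (limma adjusted p = 0.0872 and 0.0523).

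Ccnb2 (ENSMUSG00000032218, minus strand of chromosome 9, 70407692 to 70421547), cyclin B2 and the gene of the third promoter shown, had 3671, 3617 and 3344 normalised counts in LLC1 sgB2m libraries, against 2170, 2200 and 2109 in sgNT libraries. That was 1.64-fold higher with no overlap (0.71 ± 0.046, limma adjusted p = 2.08e-08). In MC38 it had 3402, 3270 and 3268 in sgB2m, against 3574, 4019 and 4174 in sgNT, so it was lower there (-0.24 ± 0.063, limma adjusted p = 0.0155). That call was lost without sgB2m replicate 2 or 3 or sgNT replicate 2 (limma adjusted p = 0.0522, 0.0551 and 0.0621). It was 0.16 in AKR and -0.23 in Hepa1-6. Ccnb1, cyclin B1, moved less, at 0.11 in AKR and -0.14 in Hepa1-6, and was not called in MC38 or LLC1 (-0.03 and -0.04). Ccna2, the cyclin of S phase and G2, was higher in LLC1 (0.13) and AKR (0.19) and lower in Hepa1-6 (-0.24). Foxm1, the activator of this wave, was the only mitotic gene called higher in Hepa1-6 (0.18). It was 1 of 7 mitotic genes called lower in AKR (-0.40), where 9 were called higher, and was higher in LLC1 (0.28).

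Among the mitotic kinases and the checkpoint genes, Plk1 (ENSMUSG00000030867, plus strand of chromosome 7, 122159439 to 122169873), the Polo kinase of mitotic entry and exit, changed most. In AKR it had 2301, 2470 and 2406 normalised counts in sgB2m, against 1504, 1371 and 1483 in sgNT (0.72 ± 0.056, limma adjusted p = 3.46e-06), and in LLC1 1751, 1811 and 1815 in sgB2m, against 1193, 1284 and 1285 in sgNT (0.52 ± 0.052, limma adjusted p = 2.18e-06). In Hepa1-6 it had 2490, 2565 and 2477 in sgB2m, against 3450, 3721 and 4012 in sgNT (-0.57 ± 0.051, limma adjusted p = 3.3e-07). The sgB2m libraries were thus higher in 2 lines and lower in the next, without overlap, and in MC38 Plk1 was not called (-0.09). Aurkb, the kinase of the chromosomal passenger complex, had 1789, 1746 and 1727 in LLC1 sgB2m libraries, against 1187, 1300 and 1225 in sgNT libraries (0.50 ± 0.053, limma adjusted p = 3.11e-06), with no overlap, and was called in no other line. Its partner Birc5, survivin, was lower in AKR (-0.24) and Hepa1-6 (-0.34). Aurka, the centrosomal Aurora kinase, was higher in LLC1 (0.27) and AKR (0.22) and lower in MC38 (-0.20) and Hepa1-6 (-0.17).

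Cdc20 (ENSMUSG00000006398, minus strand of chromosome 4, 118432901 to 118437352), the activator of the anaphase-promoting complex and the gene of the fourth promoter, had 6909, 6633 and 6748 normalised counts in AKR sgB2m libraries, against 4294, 4245 and 4186 in sgNT libraries. That was 1.59-fold higher with no overlap (0.67 ± 0.039, limma adjusted p = 4.85e-07). It was lower in Hepa1-6 (-0.28) and not called in MC38 or LLC1 (-0.04 and -0.03). The checkpoint kinase Bub1 was called only in MC38 (-0.16), and Bub1b, which encodes BUBR1, was higher in LLC1 (0.36) and AKR (0.27).

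The genes of the spindle, the kinetochore and the chromosomes were called higher in LLC1 in 7 of 7 cases, against 20.7% of all genes. Mki67 (ENSMUSG00000031004, minus strand of chromosome 7, 135689784 to 135716361) encodes Ki-67, which coats mitotic chromosomes and marks proliferating cells. In LLC1 it had 18289, 18122 and 17850 normalised counts in sgB2m, against 10854, 10592 and 10422 in sgNT, a 1.7-fold higher level (0.77 ± 0.027, limma adjusted p = 3.3e-11). In MC38 it had 38185, 35251 and 37742 in sgB2m, against 33944, 28038 and 27113 in sgNT (0.33 ± 0.075, limma adjusted p = 0.00848). The guides did not overlap in either line, and the sgNT libraries of MC38 were spread. In AKR Mki67 had 9100, 11469 and 10843 in sgB2m, against 13161, 12926 and 13681 in sgNT (-0.35 ± 0.071, limma adjusted p = 0.00249), and in Hepa1-6 12092, 11787 and 11725 in sgB2m, against 16879, 16170 and 16826 in sgNT (-0.49 ± 0.026, limma adjusted p = 7.63e-10). All sgB2m libraries of these lines were below all sgNT libraries.

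Cenpf (ENSMUSG00000026605, minus strand of chromosome 1, 189640606 to 189688086), of the outer kinetochore, had 11641, 12122 and 12552 normalised counts in MC38 sgB2m libraries, against 10649, 8098 and 7910 in sgNT libraries (0.46 ± 0.097, limma adjusted p = 0.00532). Here sgNT replicate 1 lay close to the sgB2m libraries and the other sgNT libraries lay lower. In Hepa1-6 Cenpf had 4491, 4512 and 4541 in sgB2m, against 6087, 5596 and 6205 in sgNT (-0.40 ± 0.040, limma adjusted p = 9.56e-07), with no overlap. In LLC1 it was 0.49, and Cenpe, a kinetochore motor, was 0.22 in MC38, 0.16 in LLC1 and -0.37 in AKR.

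Kif20a (ENSMUSG00000003779, plus strand of chromosome 18, 34624613 to 34633277), a kinesin of the central spindle and cytokinesis, was called in all 4 lines. In AKR it had 4888, 4882 and 4885 in sgB2m, against 3276, 3216 and 3404 in sgNT (0.57 ± 0.042, limma adjusted p = 2.38e-06), and in LLC1 the change was 0.46. In Hepa1-6 it had 2471, 2376 and 2538 in sgB2m, against 3410, 3514 and 3601 in sgNT (-0.51 ± 0.043, limma adjusted p = 1.72e-07), and in MC38 6051, 5744 and 5984 in sgB2m, against 7813, 7796 and 7402 in sgNT (-0.37 ± 0.044, limma adjusted p = 0.000192). The guides did not overlap in these lines. Kif11, the motor that parts the spindle poles, had 5686, 6341 and 6104 in AKR sgB2m libraries, against 8239, 8531 and 8316 in sgNT libraries, lower without overlap (-0.47 ± 0.046, limma adjusted p = 1.76e-05), and was higher in MC38 (0.18) and LLC1 (0.09). Top2a, the topoisomerase that untangles chromosomes, was higher in LLC1 (0.21) and lower in AKR (-0.24). Tpx2, an activator of Aurora A at the spindle, was higher in LLC1 (0.15) and lower in AKR (-0.15) and Hepa1-6 (-0.14).

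**Figure D3:**
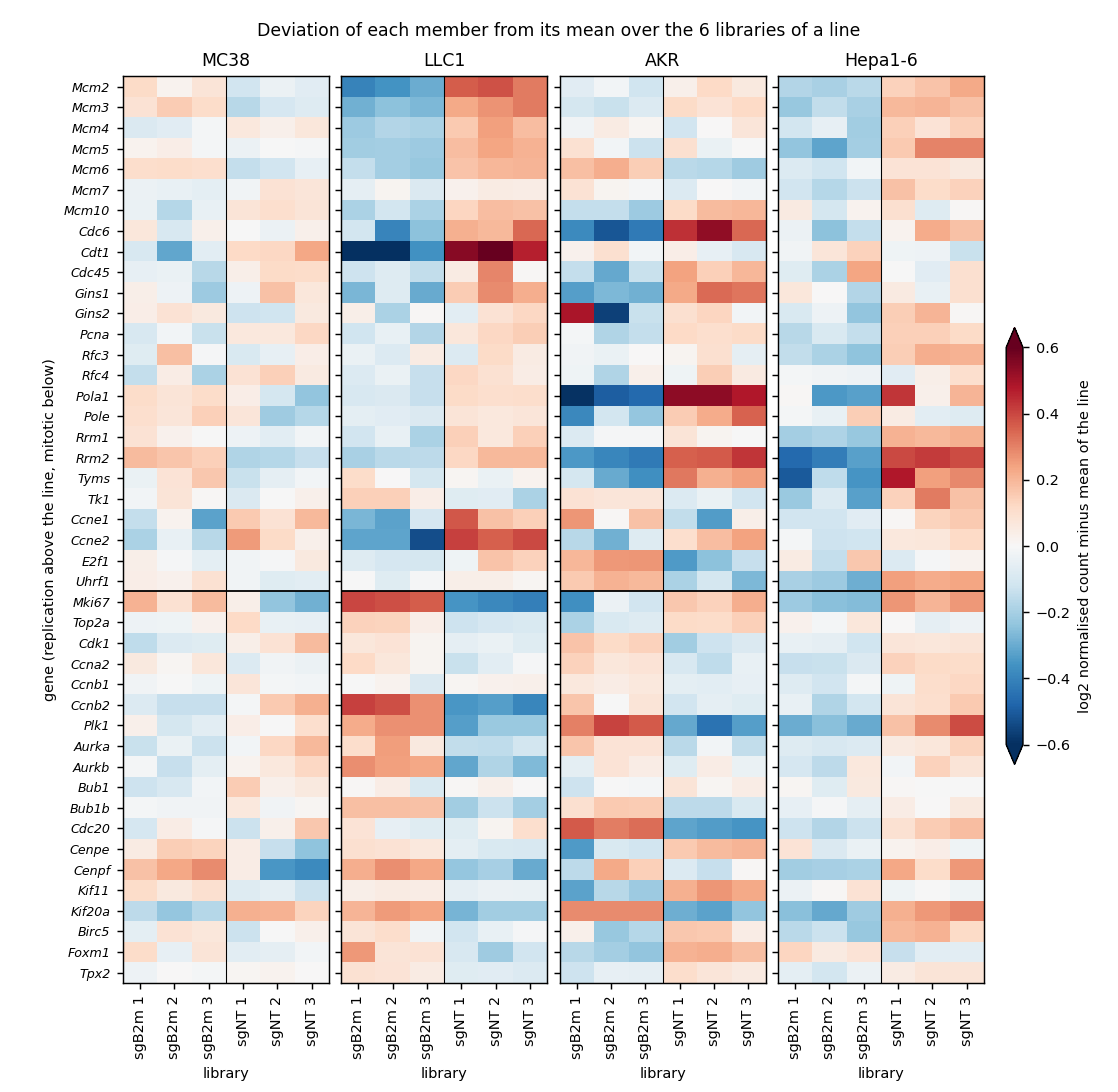
Each cell is the log2 normalised count of 1 gene (vertical axis) in 1 library (horizontal axis) minus its mean over the 6 libraries of the line, with red above and blue below the mean. Replication genes lie above the black line and mitotic genes below it. Cdt1 in LLC1, Pola1 and Cdc6 in AKR and Rrm2 in Hepa1-6 are blue in all 3 sgB2m libraries, and Mki67 and Ccnb2 in LLC1 are red in all 3.

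The size of the response differed between lines for most members. An F test in limma of the interaction of line and guide over 24 libraries called 39 of 44 members (88.6%), against 69.8% of all genes tested in the 4 lines. Members had smaller standard errors than all genes in each line, and the part of this in that share was not tested. The 5 that were not called were Pcna (adjusted p = 0.426), Gins2 (0.433), Rfc4 (0.44), Bub1 (0.108) and Cdc45 (0.0582). A p that misses the threshold does not show that the lines act alike, and Gins2 had a wide spread in AKR. The smallest interaction p-values were those of Kif20a (limma adjusted p = 5.27e-15) and Rrm2 (9.7e-15), and the widest ranges of change between lines were 1.29 for Plk1, 1.25 for Mki67, 1.23 for Pola1 and 1.22 for Cdt1.

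With the line as the replicate, limma's test fitted across all genes called 0 members and 0 of all genes. The unadjusted p from limma was under 0.05 for 2 members, Cdc6 and Ccne2, and for 4.42% of all genes. Pcna and Ccne2 were called lower in all 4 lines, as were 0.387% of all genes, and 0 members were called higher in all 4, against 0.237%. Together, 0.623% of all genes were called on the same side in the 4 lines. This count was 1 without replicate 1 of each group, 0 without replicate 2 and 0 without replicate 3. In contrast, 24 members were called higher in at least 1 line and lower in at least 1 other, 9 replication and 15 mitotic genes, against 33.4% of all genes.

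The direction of calls shared by pairs of lines is given as a description, without a test, and varied by pair. LLC1 and Hepa1-6 both called 13 replication genes, 12 of them in the same direction and 1 in the opposite direction. They both called 10 mitotic genes, 1 in the same direction and 9 in the opposite direction, while 33.6% of all genes called in both had the same direction. LLC1 and AKR called 14 replication genes in common, 12 in the same direction, and 13 mitotic genes, 7 in the same direction, against 64.5% of all genes. AKR and Hepa1-6 shared the direction of 8 of 11 replication and 3 of 12 mitotic genes, against 49.2%. MC38 and AKR shared that of 5 of 10 replication and 0 of 7 mitotic genes, against 33.2%. For MC38 and LLC1 it was 6 of 12 and 4 of 8, against 57.5%, and for MC38 and Hepa1-6 it was 3 of 8 and 4 of 6, against 54.9%.

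Across the 24 libraries, the pairs of members with the most alike deviations from their line means were Mcm2 with Mcm3 and Plk1 with Kif20a (Pearson r = 0.94 each). Next came Ccnb2 with Aurkb (0.90), Mcm5 with Rrm1 (0.89) and Tyms with Birc5 (0.89). The median r over pairs was 0.41 among replication genes, 0.27 among mitotic genes and -0.07 between the kinds. These libraries share lines, guides and size factors, so the values are descriptions without a test.

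Calls of members with the motifs shown above are given as counts. Of the 9 mitotic genes with TTTGAA near the start, 8 were called higher and 0 lower in LLC1, 6 and 2 in AKR, 0 and 6 in Hepa1-6, and 2 and 3 in MC38. Of the 11 replication genes with an E2F-type motif, 0 were called higher and 8 lower in LLC1, 2 and 3 in AKR, 0 and 9 in Hepa1-6, and 3 and 1 in MC38. Over all genes, 20.7% were called higher and 21.8% lower in LLC1, 21% and 21.9% in AKR, 18.6% and 19.2% in Hepa1-6, and 15.9% and 15.8% in MC38.

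In MC38 the change of a gene moved with its chromosome. The median over all genes tested was 0.23 on chromosome 1 and 0.14 on chromosome X, and -0.21 on chromosome 18 and -0.12 on chromosomes 10 and 16. Mcm3 and Mcm6, 2 of the 3 MCM genes called higher there, lie on chromosome 1, as does Cenpf. Relative to the chromosome median, Mcm3 was at 0, Mcm6 at -0.02 and Cenpf at 0.23. Pola1, on X, was at 0.06, Kif20a, on chromosome 18, at -0.16, Cdk1, on chromosome 10, at -0.09, and Cdc45, on chromosome 16, at -0.05. Members called elsewhere kept most of their value, as did Rrm2 (0.23), Mki67 (0.39), Cdt1 (-0.25) and Ccne2 (-0.34). These values are not corrected for transcript length, and Mki67 in MC38 was at 0.17 with that correction alone. Relative to the chromosome, the median of the mitotic genes in MC38 was 0, and of the replication genes 0.03. The part of this in the calls of the members was not tested. In LLC1 the medians relative to the chromosome were -0.27 for replication and 0.22 for mitotic genes.

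In MC38 and AKR the change of a gene also moved with its transcript length, unevenly over the libraries. Genes whose longest GENCODE M21 transcript exceeds 8000 bases had a median change of 0.17 in MC38 and -0.23 in AKR, against -0.04 in LLC1 and 0.04 in Hepa1-6. Genes of up to 1000 bases had -0.05 and 0.09 in MC38 and AKR, and 0.08 and -0.04 in LLC1 and Hepa1-6. The long genes lay lowest in sgNT replicates 2 and 3 of MC38, at -0.13 and -0.20 from their line mean. There sgNT replicate 1, at 0.09, lay among the sgB2m libraries, at 0.11, 0.06 and 0.10. In AKR the long genes lay lowest in sgB2m replicate 1, at -0.26, with sgB2m replicates 2 and 3 at 0 and -0.07. The AKR sgNT libraries were at 0.10, 0.08 and 0.18. The longest transcript had a median of 3381 bases over replication and 3668 bases over mitotic genes, against 3056 over all genes, and the longest member was Cenpf, at 11130 bases.

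With a correction for transcript length in each library, 16 of the 21 MC38 calls held. Cdc45, Pcna, Pole, Ccne1 and Cenpe lost theirs (limma adjusted p = 0.0722, 0.0661, 0.057, 0.0651 and 0.0645), while Mcm4, Uhrf1 and Ccna2 gained one. Cenpf in MC38 kept its call at 0.28 (limma adjusted p = 0.000704), down from 0.46. In AKR, where it was at 0.14 and not called, it came to 0.39 (limma adjusted p = 2.94e-06). Mki67, at 10061 bases, kept its calls at smaller sizes in MC38, 0.17 in place of 0.33, and in AKR, -0.12 in place of -0.35. For LLC1 and Hepa1-6 its corrected changes were 0.79 and -0.54, against 0.77 and -0.49 without the correction. Cenpe in AKR kept its call at -0.2 in place of -0.37. AKR lost Ccnb2 (limma adjusted p = 0.0637) and gained Rfc4, Bub1 and Cenpf, Hepa1-6 lost Ccne1 (limma adjusted p = 0.0596), and LLC1 lost and gained 0.

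**Figure D4:**
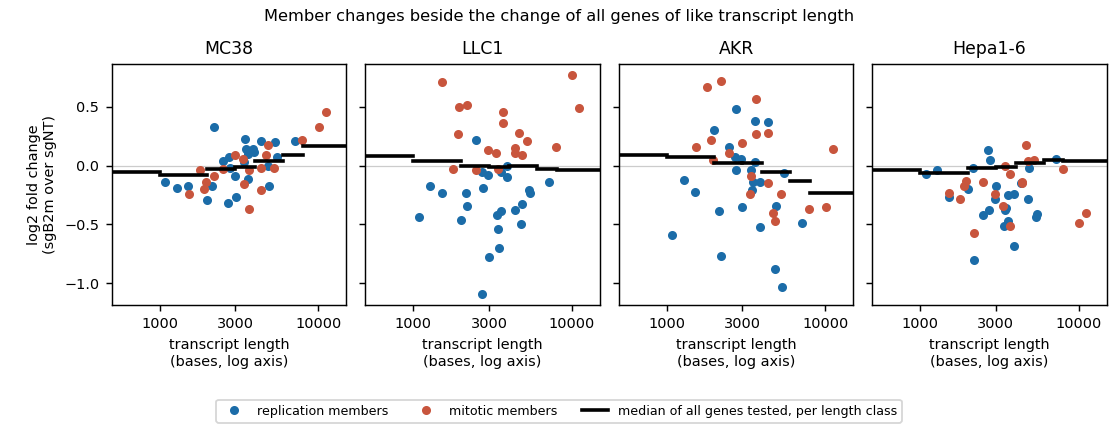
Each point is a member, by its longest transcript in bases (horizontal, log axis) and its log2 fold change in sgB2m over sgNT (vertical), and each black bar is the median of all genes tested in that class of length. The bars rise with length in MC38, to 0.17, fall with length in AKR, to -0.23, and stay between -0.06 and 0.08 in LLC1 and Hepa1-6.

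Further genes of the same pathways were counted from lists chosen by function. Of 47 other replication genes, 23 were called lower and 7 higher in LLC1, 22 and 8 in AKR, 20 and 4 in Hepa1-6, and 9 and 9 in MC38. Of all genes, the shares called lower and higher were 21.8% and 20.7% for LLC1, 21.9% and 21% for AKR, 19.2% and 18.6% for Hepa1-6, and 15.8% and 15.9% for MC38. The MC38 count was near them. In LLC1 Orc2, a subunit of the origin recognition complex, had 1987, 2178 and 2122 normalised counts in sgB2m, against 3690, 3568 and 3441 in sgNT (-0.77). Recql4, a helicase needed for firing, was at -0.77 in LLC1 and -0.87 in AKR, and Timeless, a fork protection factor, at -0.69 in AKR. In Hepa1-6 Dscc1, of an alternative clamp loader, and Dna2, a nuclease and helicase, were at -0.75 and -0.74.

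Of 18 genes of nucleotide supply, 14 were called lower and 1 higher in LLC1, 12 and 2 in Hepa1-6, 7 and 6 in AKR, and 6 and 3 in MC38. Of all genes, 21.8% were called lower and 20.7% higher in LLC1, and 19.2% and 18.6% in Hepa1-6. The shares were 21.9% and 21% in AKR, and 15.8% and 15.9% in MC38. Rrm2b, the p53-inducible small subunit of ribonucleotide reductase, was at -0.66 in LLC1 and -1.03 in AKR. Ctps, which makes CTP, went the other way, at 0.59 in MC38 and 0.76 in Hepa1-6, where Nme1, a nucleoside diphosphate kinase, was at -0.63. All changes named from these lists, here and below, had a limma adjusted p under 0.05 except where said.

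Of 77 other mitotic genes, 29 were called higher and 13 lower in LLC1, 5 and 30 in Hepa1-6, 22 and 22 in AKR, and 18 and 7 in MC38, against 20.7% higher and 21.8% lower, 18.6% and 19.2%, 21% and 21.9%, and 15.9% and 15.8% of all genes in the same order. Nusap1, a microtubule bundling protein, had 3412, 3418 and 3213 normalised counts in LLC1 sgB2m libraries, against 1986, 2014 and 1954 in sgNT libraries (0.75). Fam83d, a spindle protein, was at 0.78 in LLC1 and -0.61 in Hepa1-6, with Spc24, of the NDC80 complex, at -0.62 in Hepa1-6 (limma adjusted p = 0.0623 with no intensity trend). In AKR Pttg1, securin, and Ckap2, a spindle protein, were at 0.80 and 0.79, and in MC38 Ska1, of the outer kinetochore, was at -0.76.

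Of 17 genes of the E2F and RB family, 8 were called lower and 1 higher in LLC1, 7 and 4 in AKR, 4 and 5 in Hepa1-6, and 1 and 3 in MC38. Lin54, the MuvB subunit that reads the TTTGAA element, was at -0.62 in AKR. Of 23 checkpoint kinase and anaphase-promoting complex genes, 8 were called lower and 6 higher in LLC1, 9 and 5 in AKR, 7 and 1 in Hepa1-6, and 3 and 2 in MC38, against 21.8% lower and 20.7% higher, 21.9% and 21%, 19.2% and 18.6%, and 15.8% and 15.9% of all genes in the same order. Atr and Rad9a, of the replication stress checkpoint, were at -0.64 and -0.68 in LLC1, and Pkmyt1, an inhibitor of CDK1, at -0.66 in AKR.

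Of the G1 cyclins, their kinases and inhibitors that were tested, 8 were called lower and 1 higher of 16 in MC38, 8 and 3 of 15 in LLC1, 5 and 5 of 16 in AKR, and 5 and 7 of 17 in Hepa1-6, where 15.8% and 15.9%, 21.8% and 20.7%, 21.9% and 21%, and 19.2% and 18.6% of all genes were called lower and higher in the same order of lines. Cdkn1a, the CDK inhibitor p21, had 2279, 2254 and 2158 normalised counts in MC38 sgB2m libraries, against 4796, 4700 and 5067 in sgNT libraries, far lower and without overlap (-1.12). In AKR it had 11236, 10775 and 10768 in sgB2m, against 6851, 6947 and 6566 in sgNT, and was higher (0.69). It was at -0.19 in LLC1 and 0.14 in Hepa1-6, with limma adjusted p of 0.0383 and 0.0343. The LLC1 call was lost without sgB2m replicate 1 or 2 or sgNT replicate 2 (limma adjusted p = 0.106 to 0.177), and the Hepa1-6 call without replicate 1 or 2 of either guide (0.0608 to 0.144). Both were also lost with no filter (limma adjusted p = 0.135 and 0.0875) and with quantile normalisation (0.0616 and 0.0604). Cdkn2c, the CDK4 and CDK6 inhibitor p18, had 1105, 1097 and 1144 in LLC1 sgB2m libraries, against 376, 415 and 440 in sgNT libraries (1.44).

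Myc, an activator of growth and S phase entry, had 10291, 9351 and 10025 normalised counts in LLC1 sgB2m libraries, against 23822, 24124 and 22289 in sgNT libraries (-1.24), and 414, 451 and 428 in AKR sgB2m libraries, against 971, 929 and 1001 in sgNT libraries (-1.16). In Hepa1-6 it had 9901, 10150 and 10211 in sgB2m, against 4633, 4777 and 4733 in sgNT (1.10). Guides were well apart in these 3 lines, lower in sgB2m in 2 and higher in the next, and in MC38 Myc was not called (0.02). Ccnd1, cyclin D1, was lower in MC38 (-0.26), LLC1 (-0.44) and AKR (-0.22) and higher in Hepa1-6 (0.37). Mycn was at 0.88 in Hepa1-6, and Myb, at the low end of detection in MC38, had 0, 6.51 and 2.85 in sgB2m, against 30.1, 36.2 and 31.6 in sgNT (-3.45).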

How the data were processed

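Bulk RNA-seq of 24 libraries was used as deposited, 1 table of log2 normalised counts per line. The submitters' processing notes name the build mm10 and the tools STAR, DESeq2 and FastQC 0.11.5, and the gene counter, its annotation and its use of strand are not given in the sources used here. The deposited log2 values were whole multiples of 1 step per library, within 0.05 reads, once a constant of 1 was removed, so the unit was taken as log2(reads over a size factor + 1), with size factors set within a line. Levels were thus compared within a line.

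In R 4.3.3 with limma 3.58.1, a gene was tested in a line if 3 or more of its 6 libraries reached a log2 value of 3.5, two-sided, with an intensity trend and no covariate, and Benjamini-Hochberg adjustment. Fold changes are on the log2(value + 1) scale, which understates changes of low genes. The interaction F test used 24 libraries, and the test across lines the 4 fold changes. Members were not used as replicates. The fit was tested on simulated data. Gene positions and transcript lengths are from GENCODE M21 (GRCm38, the same assembly as mm10), and promoters from RefSeq, with the first listed for each gene.

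The members and lists were chosen with earlier results of these data known. The text gives library values for the 4 called members with the largest change per group and line, for Mki67, Pcna, Cdk1 and E2f1, and names at most 2 genes per other list and line, with absolute log2 changes of at least 0.58, plus Cdkn1a, Ccnd1 and Myc, and 1 gene that this rule would name is not reported here. The library values of Orc2, Nusap1, Cdkn2c, Cdkn1a, Myc, Myb and of Gins2 in AKR were added after they were seen. Alternatives tried were a pseudocount of 8, no filter, a filter at 5.5, no intensity trend, quantile normalisation, median centring, a replicate block and leaving out each library. Added after the data were seen were limma voom on recovered reads, a lowess correction for transcript length and values relative to the chromosome median. The check for repeated libraries was the correlation of log2 values, 0.979 to 0.987 within groups.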

Additional observations from a re-analysis of the deposited data

Results flagged for a closer look

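The response of most members differed between lines, by limma's F test of the interaction of line and guide with Benjamini-Hochberg adjustment, which called 39 of 44. The same test called 69.8% of all genes tested in the 4 lines. The 24 members called higher in at least 1 line and lower in at least 1 other all passed it. They were picked by opposite calls in these same libraries, so passing was nearly fixed in advance and is no separate support. Among replication genes the adjusted p-values were 5.67e-11 for Mcm2, 6.64e-12 for Mcm3, 7.1e-12 for Mcm6, 5.27e-08 for Pola1 and 1.13e-05 for Pole. They were 9.7e-15 for Rrm2, 1.04e-06 for Tk1, 1.71e-05 for E2f1 and 2.76e-11 for Uhrf1. Among mitotic genes they were 1.43e-10 for Mki67, 2.68e-06 for Top2a, 1.17e-07 for Cdk1, 5e-07 for Ccna2 and 0.00269 for Ccnb1. Further values were 3.16e-10 for Ccnb2, 2.34e-12 for Plk1, 3.05e-06 for Aurka, 4.53e-09 for Cdc20 and 8.93e-06 for Cenpe. The last were 2.55e-06 for Cenpf, 4.98e-10 for Kif11, 5.27e-15 for Kif20a, 3.87e-08 for Foxm1 and 1.16e-06 for Tpx2. With 3 libraries in a group, no group was large enough for a test of single outlying libraries.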

How the results depend on the processing

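Counts in LLC1 and AKR, and counts of genes called lower in Hepa1-6, stayed within 1.5 times of the reported ones under every alternative run. The MC38 counts did not, and the cause was not tested. Replication genes called higher in MC38 numbered 3, not 6, with no filter, with no intensity trend and with quantile normalisation. Those called lower numbered 3, not 6, with no filter and with median centring, and 0 with no intensity trend. Mitotic genes called higher in MC38 numbered 0, not 4, with no intensity trend, and those called lower 3, not 5, with no filter and 1 with no intensity trend. In Hepa1-6, mitotic genes called higher numbered 2, not 1, with quantile normalisation. The members called on the same side in every line numbered 1, not 2, with no filter, quantile normalisation or the transcript length correction, and 0 with no intensity trend.

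Medians also moved. Quantile normalisation gave 0 for replication and -0.07 for mitotic genes in MC38, 0.29 for mitotic genes in LLC1 and 0.21, not 0.11, in AKR. Median centring gave -0.02 for mitotic genes in MC38, -0.18 for replication and 0.07 for mitotic genes in AKR, and -0.30 for replication and -0.18 for mitotic genes in Hepa1-6. Relative to the chromosome median, mitotic genes in MC38 were at 0, replication genes in LLC1 at -0.27 and in Hepa1-6 at -0.24. The length correction gave 0.08 for mitotic genes in AKR.

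With single libraries left out, replication genes called higher ranged from 3 to 7 in MC38, 1 to 1 in LLC1, 3 to 5 in AKR and 0 to 1 in Hepa1-6. Those called lower ranged from 1 to 7, 17 to 19, 11 to 12 and 15 to 17. Mitotic genes called higher ranged from 3 to 4, 12 to 15, 7 to 9 and 1 to 2, and those called lower from 2 to 6, 0 to 0, 6 to 7 and 11 to 13. Medians ranged from 0.01 to 0.04, -0.29 to -0.22, -0.15 to -0.07 and -0.28 to -0.25 for replication genes in the same order of lines, and from -0.04 to -0.01, 0.19 to 0.24, 0.06 to 0.12 and -0.18 to -0.14 for mitotic genes. Interaction calls ranged from 38 to 39, and same-direction calls from 0 to 1.

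The replicate block lowered the replication genes called lower in MC38 to 3, and same-direction calls to 1. In MC38, AKR and Hepa1-6, same-numbered libraries of the 2 guides had deviations that correlated at -0.03 to 0.04, against at most 0.04 for unmatched ones. In LLC1 the matched values were 0.02, 0.05 and 0.03, above the highest unmatched value of 0.01. All of these are small, and they do not show whether same-numbered libraries were handled together.

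Of 1226 checks on named genes, 1163 kept direction and side of the threshold, 59 lost the call and 4 changed sign. The last were all E2f1, which was not called there. In MC38 it was at 0 without sgB2m replicate 3 or sgNT replicate 3 and at 0.01 with the length correction. In Hepa1-6 it was at -0.02 without sgB2m replicate 3, and its range with single libraries left out was -0.02 to 0.13. The edgeR and DESeq2 alternatives were not run, since the deposited unit is log2, and limma voom on recovered reads left 82 of 82 named genes on the same side of the threshold. A count over a whole gene does not show whether a transcript carries an edit, and these small changes rest on 3 libraries per group.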
